A study of Drosophila melanogaster with 12 samples.

Results

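RNA bound with an antibody against the formin Dia was compared with RNA bound by a GFP-binder in wild-type lysates that hold no GFP. Both served as controls in a study of Slam, and the comparison describes the RNA that each control carried. The 4 Dia and 3 wild-type libraries are 7 of the 12 libraries of the series. Genes were joined by identifier between 2 count tables, which left 15288 genes, and a gene was tested if its mean normalised read count over the 7 libraries reached 50. This gave 6868 genes, while 8420 fell below the minimum, of which 3241 had no read in any of the 7 libraries.

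All 7 libraries came from wild-type Drosophila melanogaster embryos of 1.5-3 h, and the GFP-binder controls were of the OrR strain. For the Dia libraries, a guinea pig antibody was bound to Protein A beads. For the wild-type libraries, a biotinylated GFP-binder was held on streptavidin beads. The 5 other libraries of the series used the same methods, with a Slam antibody in wild-type embryos (n = 3) and with the GFP-binder in embryos that express GFP-slam (n = 2). They are called Slam and GFP-slam below. Antibody and GFP-binder libraries were counted in different tables with different gene annotations, so that target protein, bead, experiment and count table cannot be told apart in the comparison of Dia with wild type. The embryos were pooled whole, over a span that runs from syncytial divisions into cellularization. Fewer cells of a type and less RNA per cell cannot be told apart in such samples. The methods call the replicates biological, and the labels only number them, so the p-values measure the spread between these libraries.

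Dia nucleates and elongates unbranched actin filaments downstream of the GTPase Rho1, and it acts at the furrow canal, the tip of the membrane that grows in between the nuclei during cellularization. An antibody can carry down RNA that is bound to its protein, RNA that is still being translated into its protein, and RNA that sticks to beads or antibody. The GFP-binder in wild-type lysate should carry only RNA of the last kind.

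The Dia libraries held 14784855, 14269505, 4383704 and 21220787 counts, and the wild-type libraries 20170936, 29453698 and 29431595. Of these counts, 2.7% to 3.17% over all 12 libraries lay under gene identifiers found in only 1 of the tables, which the join left out. Whether the same gene stood under different identifiers in the 2 tables was not checked. Levels are given as CPM, the counts of a gene scaled to the same library total after correction by TMM (trimmed mean of M-values). The scales of the 7 libraries and of the other 5 differed by 1.3%. All 10 markers of the early embryo were present in all 7 libraries. Of 6 genes of the follicle cells that surround the egg, 5 had no read and the other had 2 reads in 1 library. The 34 measured genes of later embryonic tissues summed to 1997, 827, 343 and 283 CPM in Dia 1 to Dia 4, against 180 to 458 in the wild-type libraries. Within this list Mhc, the muscle myosin heavy chain, was at 1391, 394, 77.7 and 64.6 CPM with Dia and at 34.9, 49.7 and 161 in wild type (edgeR adjusted p = 0.445), so Dia 1 and Dia 2 stood above the others.

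Both controls carried much the same abundant RNA. Of the 10 most abundant joined genes of each group, 7 were shared, and of the 100 most abundant, 74. Genes left out by the join were not ranked, though some were as abundant. The identifier of CG4264, found in the GFP-binder table only, had 120935, 170589 and 187606 counts in wild type 1 to 3. CycB had 93510, 128407 and 141648 there. An identifier without a name, found in the antibody table only, had 81033, 70211, 27542 and 100275 counts in Dia 1 to Dia 4. CycB had 98550, 62890, 18791 and 95889 in these. Whether both identifiers stand for the same gene was not checked, so neither is shown to be particular to 1 control. The elongation factor gene Ef1alpha48D ranked highest of the joined genes in both groups, at 12414 ± 1836 CPM with Dia (SD, n = 4) and 9613 ± 1763 in wild type (SD, n = 3). Dia samples overlapped wild-type samples for this gene (log2 ratio 0.37, edgeR adjusted p = 0.386).

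EF2, which moves the ribosome along the mRNA, was at 6995 ± 1660 CPM with Dia and 8466 ± 718 in wild type. CycB, a mitotic cyclin with a large maternal store of mRNA, was at 5031 ± 1378 and 4915 ± 194. The tubulin genes alphaTub84B and betaTub56D, the actin gene Act5C and the small nuclear RNA 7SK completed the shared set. Their log2 ratios lay between -0.37 and 0.03, and none of the 7 shared genes passed the test. me31B, a helicase of repressed mRNA particles, was among the 10 with Dia only, yet its level was 3396 ± 372 CPM against 3040 ± 270. The 10 joined genes with the most counts in each single library took 4.78% to 8.73% of the counts of a Dia library and 5.02% to 6.06% of a wild-type library.

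Across the genes tested, 92.4% differed by less than 2-fold between the groups. The median coefficient of variation of a gene was 23.6% between Dia libraries and 19.99% between wild-type libraries. As a description across genes, which are not independent replicates, log2 CPM correlated at 0.940 to 0.956 between Dia libraries and at 0.951 to 0.967 between wild-type libraries. Between a Dia and a wild-type library the correlation was 0.859 to 0.905. Between a Dia and a Slam library it was 0.892 to 0.924, a range that overlaps that of Dia with wild type, and between a wild-type and a GFP-slam library 0.953 to 0.974. Both kinds of pair share the method, the beads and the count table. All of these correlations include the genes that are called set apart between the count tables below.

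**Figure D1:**
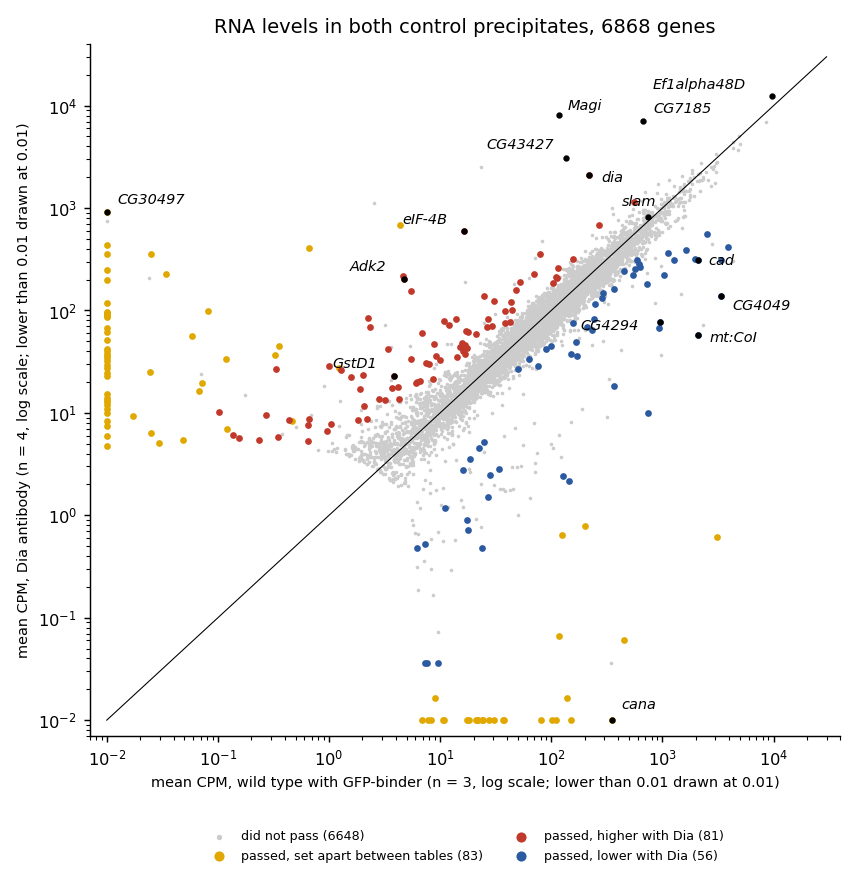
Mean CPM with Dia (n = 4) against mean CPM in wild type (n = 3) for 6868 genes, both axes logarithmic, with the line of equal level. Most genes lie along the line from Ef1alpha48D downward, while genes set apart between the count tables lie on the edges, where 1 group is at or near 0.

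The test across all genes was edgeR's quasi-likelihood test with Benjamini-Hochberg adjustment, and a gene passed if its adjusted p was under 0.05. Of the genes tested, 220 passed (3.2%), with 136 higher with Dia (1.98%) and 84 lower (1.22%). A more than 4-fold difference was seen for 160 of those that passed (2.33%), 98 higher (1.43%) and 62 lower (0.903%). Before adjustment, 1082 genes (15.8%) had a p under 0.05. All 4 Dia libraries lay above all 3 wild-type libraries for 522 genes (7.6%) and below them for 468 (6.81%). With DESeq2, 398 genes passed (5.79%).

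The largest ratios followed the count tables. A gene was called set apart if its summed counts differed by at least 64-fold between the antibody table (Dia and Slam) and the GFP-binder table (wild type and GFP-slam) over all 12 libraries. There were 89 such genes, 59 higher in the antibody table and 30 higher in the GFP-binder table, and 83 of them passed the test of Dia against wild type. The 12 highest and the 12 lowest ratios, among genes that passed with groups that did not overlap and at least 20 counts in each library of the higher group, all belonged to them. Because the rule of 64-fold used these libraries, their ratios are descriptions.

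CG30497, an uncharacterised gene (CG46385 in the RefSeq table), was at 998, 1022, 931 and 737 CPM in Dia 1 to Dia 4 and had no read in the wild-type libraries. Slam gave 989, 634 and 518 CPM, and GFP-slam again no read. Against a floor of 3 counts over the group, this was at least 22100-fold higher with Dia.

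BicC, an RNA-binding protein of oogenesis, was at 286, 443, 294 and 704 CPM against 0 in wild type, at least 12100-fold higher. The same held for dUTPase, which removes dUTP from the nucleotide pool (at least 8240-fold). The neighbouring genes Sry-alpha and Sry-beta overlap each other. Sry-alpha, which acts on furrow actin during cellularization, was at 364, 159, 498 and 394 CPM against 0, 0.0748 and 0. Sry-beta, a zinc finger protein, was at 97.8, 71.1, 93 and 81.1 CPM against 0 (at least 2050-fold).

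In the opposite direction, cana, a kinesin related to CENP-E, had no read with Dia and 414, 307 and 333 CPM in wild type, at least 6240-fold lower. Slam also had no read in cana, and GFP-slam had 371 and 488 CPM. Chrac-14, a histone-fold subunit of a chromatin remodelling complex, had no read with Dia and 96.5, 82.9 and 128 CPM in wild type (at least 1870-fold). cin, which acts in the synthesis of the molybdenum cofactor, had 5 reads in all with Dia against 299, 609 and 440 CPM. The histone gene His2B:CG33868, one of many near-identical copies between which reads can be split, was at least 2740-fold lower.

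Of the 59 genes set apart toward the antibody table, 51 were matched to RefSeq, and 90.2% of these overlap another RefSeq gene, against 51.7% of all genes tested. For the 30 genes set apart toward the GFP-binder table the share was 43.3%. Of the 51 genes, 35.3% overlap an antisense RNA gene, against 4.69% of all genes tested. How reads of overlapping genes were assigned in each table is not given in the sources used here, and the part of gene overlap in these ratios was not tested.

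Outside these 89 genes, 6779 genes remained, of which 93.6% differed by less than 2-fold. The fit across all genes passed 137 of them (2.02%), with 81 higher with Dia (1.19%) and 56 lower (0.826%). Of these, 77 differed by more than 4-fold (1.14%), 43 higher (0.634%) and 34 lower (0.502%). Without regard to the test, all Dia libraries lay above wild type for 463 genes (6.83%) and below for 438 (6.46%). The following results are about these 6779 genes unless stated.

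dia itself was higher with the Dia antibody. Its levels were 3463, 1537, 2788 and 685 CPM in Dia 1 to Dia 4, and 209, 293 and 152 CPM in the wild-type libraries. Every Dia library lay above every wild-type library, and above the Slam (191, 146.2 and 236 CPM) and GFP-slam libraries (211 and 324 CPM). The log2 ratio of Dia over wild type was 3.28 (SE 0.57, edgeR adjusted p = 0.0156). The exact two-sided permutation test of its CPM gave p = 0.0571, which is the smallest p that 4 against 3 libraries allow.

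The dia gene lies on chromosome 2L at 20758144 to 20768053 in the coordinates of the deposited tables, whose build is not given in the sources used here, and it overlaps no other RefSeq gene. Dia 4, with 685 CPM, was the lowest Dia library, at more than 2-fold above the highest of the other 8 libraries. The call was lost without Dia 3 (adjusted p = 0.0608) or when any single wild-type library was left out (0.0694 to 0.0791).

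3 further genes were abundant with Dia and spread widely between its libraries. Magi, a membrane-associated guanylate kinase scaffold, was at 21152, 3825, 6529 and 684 CPM with Dia and at 105, 107 and 137 CPM in wild type. Slam gave 150, 115 and 92 CPM, and GFP-slam 150 and 92.8 CPM. Each Dia library thus lay above all 8 others, and Dia 1 and Dia 4 lay further apart than Dia 4 and the wild-type libraries.

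The log2 ratio of Magi was 6.11 (SE 1.37), and it did not pass (edgeR adjusted p = 0.106). Without Dia 1 the ratio was 4.98 (adjusted p = 0.0509). It passed with DESeq2 (adjusted p = 1.16e-08), in a fit of all 12 libraries (0.013) and without Dia 4 (0.0177). Magi lies on 2R at 21129463 to 21142261 and overlaps mago, a component of the exon junction complex, which was at 471, 253, 314 and 169 CPM with Dia and 153, 158 and 196 CPM in wild type.

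CG43427 (smash in the RefSeq table, on 3R at 4659579 to 4712193) was at 7646, 1276, 3132 and 288 CPM with Dia and at 156, 85.4 and 163 CPM in wild type. Its groups did not overlap, and its log2 ratio of 4.52 (SE 1.25) did not pass (edgeR adjusted p = 0.17). Slam 1 reached 995 CPM, above Dia 4. CG43427 was named after its values were seen.

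CG7185 (Cpsf6 in the RefSeq table, a subunit of the mRNA cleavage factor, on 3L at 8310493 to 8315502) was at 21900, 2160, 3863 and 657 CPM with Dia and at 471, 763 and 771 CPM in wild type. Dia 4 lay within the wild-type range, and the log2 ratio of 3.42 (SE 1.34) did not pass (edgeR adjusted p = 0.307).

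dia, Magi, CG43427 and CG7185 had the same order of Dia libraries, with Dia 1 highest, then Dia 3, Dia 2 and Dia 4. This order was found for 446 of all 6868 genes (6.49%). Together the 4 genes took 5.1% of all counts in Dia 1, 0.941% in Dia 2, 1.62% in Dia 3 and 0.226% in Dia 4, against 0.0908% to 0.115% in the wild-type libraries. The 95% Wilson intervals, which cover counting error only, were narrower than these differences, at 5.092% to 5.115% in Dia 1 and 0.2242% to 0.2282% in Dia 4. The order of Dia libraries in the later embryonic genes was different (Dia 1, Dia 2, Dia 3, Dia 4).

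Over all 12 libraries and all 6868 genes, the 4 Dia libraries lay above the other 8 for 98 genes (1.43%) and below them for 50 (0.728%). Of the 6779 genes not set apart, 3 (0.0443%) had more than 2-fold from the lowest Dia library to the highest other library, namely Magi, dia and CR41535, which was not matched to RefSeq. CR41535 was at 24.2, 14.8, 229 and 17.5 CPM with Dia and between 2.58 and 4.37 CPM in wild type (log2 ratio 4.46, edgeR adjusted p = 0.212), with its high value in Dia 3. It was chosen after its values were seen. Of all 6868 genes, the wild-type libraries lay above the other 9 for 45 (0.655%) and below them for 41 (0.597%).

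**Figure D2:**
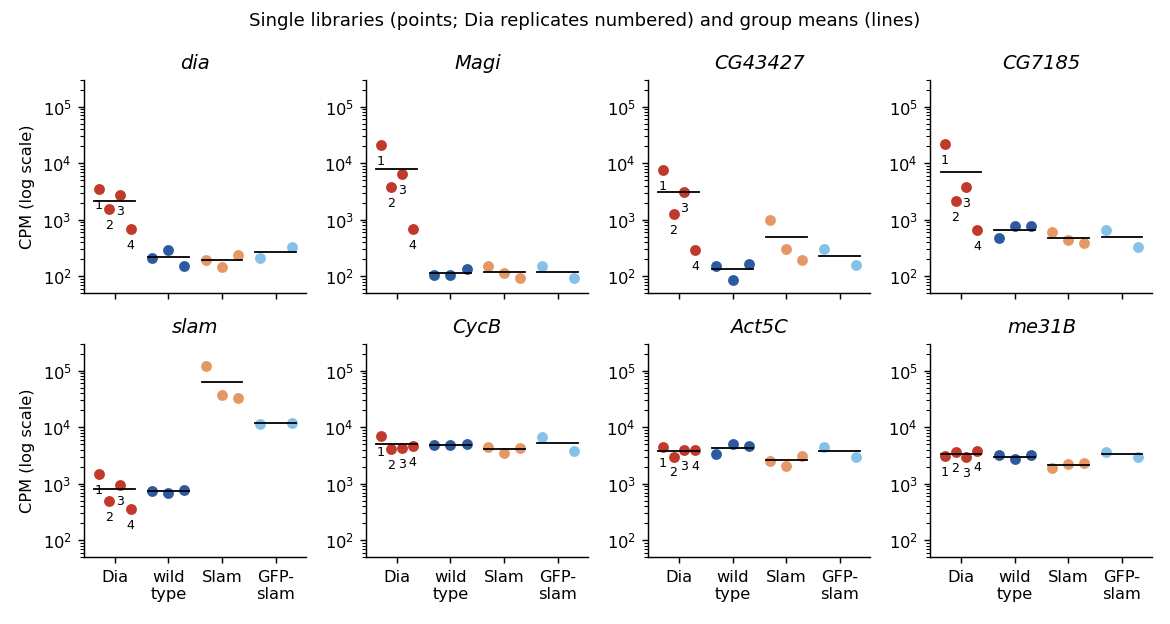
CPM of 8 genes in every library (points, logarithmic axis) with the group means (lines), and the Dia libraries numbered. dia and Magi are higher in all 4 Dia libraries than in any other library, slam is high with Slam and GFP-slam, and the Dia and wild-type libraries overlap for CycB, Act5C and me31B.

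slam, whose RNA the study followed, did not pass the test between the controls. It was at 1485, 497, 967 and 357 CPM with Dia and 732, 694 and 777 CPM in wild type (log2 ratio 0.17, SE 0.42, edgeR adjusted p = 0.897), so the wild-type values lay within the Dia range. flfl, a subunit of protein phosphatase 4, had a log2 ratio of 0.56 (adjusted p = 0.422), and Tes, a LIM domain protein, of 0.01 (0.988). Hip1, an adaptor of clathrin-coated vesicles, was at 157 ± 35.9 CPM with Dia and 198 ± 37.9 in wild type (log2 ratio -0.34, adjusted p = 0.533). Rho1, the activator of Dia, was at 362 ± 84.3 and 391 ± 99.2 CPM (log2 ratio -0.11, adjusted p = 0.885).

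The question that follows is whether a difference between Dia and wild type is also seen between Slam and GFP-slam, which differ in the same beads and count tables but share no library with it. Of the 81 genes higher with Dia, 60 were also higher with Slam than with GFP-slam by the same test, 2 were lower and 19 did not pass. The background for higher with Slam was 9.17% of the genes tested (630 genes, against 1366 lower), and 8.42% outside the set-apart genes. Scaled by library totals only, 697 genes were higher and 624 lower. The median log2 ratio of the 81 genes was 2.06 for Dia over wild type and 1.82 for Slam over GFP-slam. Of the 56 genes lower with Dia, 35 were also lower with Slam (background 19.9%, and 19.7% outside the set-apart genes), 1 was higher and 20 did not pass. Their median log2 ratios were -2.26 and -1.88.

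The difference between both log2 ratios was then tested in a fit of all 12 libraries, which uses the Dia and wild-type libraries again. Here 42 genes were relatively higher for Dia (0.612%) and 186 relatively lower (2.71%). Outside the set-apart genes the shares were 0.62% and 2.68%. Of the genes that passed for Dia against wild type outside the set-apart genes, 3 were higher in this test as well and 5 lower. They were dia, GstD1 and CR34335, and CG4294, ZC3H3, CG7065, snoRNA:Pi4KIIalpha-a and scaRNA:PsiU2-55. The contrast for dia was 3.77 on the log2 scale (SE 0.70, edgeR adjusted p = 0.0112). For Magi it was 6.14 (SE 1.39), and the adjusted p of 0.05 lay just above the threshold.

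GstD1, a glutathione transferase of the stress response, was at 14.9, 30.5, 17 and 30.3 CPM with Dia and 1.75, 4.45 and 5.33 CPM in wild type (log2 ratio 2.59, edgeR adjusted p = 0.00346). GFP-slam stood apart from the other groups, at 146.5 and 147.5 CPM against 18, 22.1 and 22.7 CPM with Slam, so that the difference for GstD1 (5.40, adjusted p = 2.9e-05) also rests on GFP-slam. The same was seen for the noncoding RNA CR34335, at 20.5 ± 6.99 CPM with Dia, 6.6 ± 2.03 in wild type and 53.7 and 33.1 in GFP-slam.

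CG4294, an uncharacterised gene that overlaps CG4269, was lower with Dia, at 80.7, 83.1, 87.8 and 55.2 CPM against 1331, 681 and 833 CPM in wild type. Its log2 ratio was -3.63 (SE 0.28, edgeR adjusted p = 1.3e-06), and the Slam and GFP-slam libraries lay between, from 176 to 536 CPM. The zinc finger gene ZC3H3 was at 28.9 ± 11 CPM with Dia and 76.2 ± 16.7 in wild type (log2 ratio -1.39, adjusted p = 0.0155), a call that was lost without wild type 2 or 3. Slam stood high for ZC3H3, at 263, 286 and 183 CPM against 74.3 and 32.6 with GFP-slam, so that its difference of -3.58 also rests on Slam. CG7065 was at 64 ± 22.3 and 232 ± 15.6 CPM (-1.86, adjusted p = 0.000415). The small RNAs snoRNA:Pi4KIIalpha-a and scaRNA:PsiU2-55 were high in wild type 1 only, at 23.7 and 61.3 CPM, against 2.03 to 5.33 in the other wild-type libraries.

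**Figure D3:**
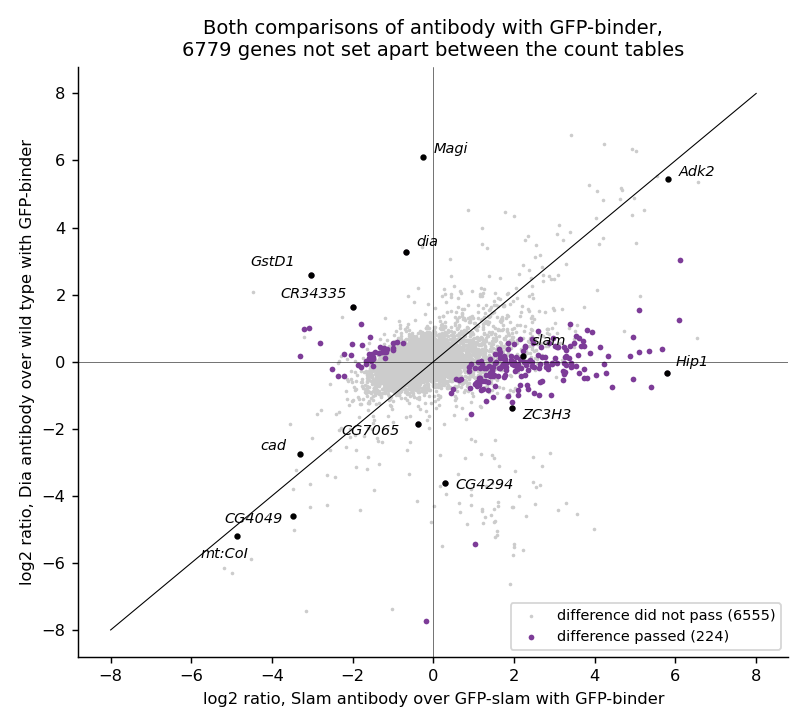
The log2 ratio of Dia over wild type against that of Slam over GFP-slam for the 6779 genes not set apart, with the line of equal ratio. Adk2, mt:CoI and cad lie near the line, and dia, Magi, GstD1 and CG4294 lie away from it.

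Among the other genes higher with Dia, several had narrow groups. Adk2, an adenylate kinase, was at 214, 215, 212 and 178 CPM with Dia and 4.78, 4.56 and 4.83 CPM in wild type. This log2 ratio of 5.44 (SE 0.24, edgeR adjusted p = 9.86e-09) was matched by a ratio of 5.82 for Slam over GFP-slam. Adk2 overlaps no other RefSeq gene. Because the 12 highest and 12 lowest genes all were set apart, the 12 highest and lowest outside the set-apart genes were added after the values were seen, and Adk2, Galphaq, ppk19, CG11077, CG8860 and the protein-coding mitochondrial genes named below come from there. Of the genes named above and below, dm, dpn, Kdm4B, Rab1, ftz-f1, CG17715, CG32364, CR40461, CG4294, CG7065, ZC3H3, tou, ACC, Sfmbt, Mlf and Mhc were also chosen after their values were seen.

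Galphaq, the G protein subunit of phototransduction, was at 177, 248, 164 and 274 CPM with Dia against 4.93, 5.05 and 3.88 CPM, a log2 ratio of 5.54. The translation initiation factor eIF-4B was at 849, 516, 559 and 450 CPM against 16.1, 14.8 and 17.8 CPM (log2 ratio 5.19, SE 0.31, edgeR adjusted p = 7.71e-08). The ion channel gene ppk19 and CG11077 (Mpv17 in the RefSeq table) had log2 ratios of 6.49 and 6.28 at 10.3 ± 4 and 26.6 ± 4.86 CPM with Dia. CG8860 had a log2 ratio of 5.27. All of these overlap another gene, and all were higher with Slam than with GFP-slam, with log2 ratios of 3.86 to 5.54.

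Smaller differences were found for other genes. dm, the fly Myc, was at 257, 476, 311 and 370 CPM with Dia and 90.5, 69.1 and 78.5 CPM in wild type (log2 ratio 2.16, edgeR adjusted p = 9.82e-05). The transcriptional repressor dpn had a log2 ratio of 2.56, the histone demethylase Kdm4B of 2.48, Sec63 of protein import into the endoplasmic reticulum of 1.72, and the small heat shock protein Hsp23 of 1.71. Rab1, a GTPase of transport to the Golgi, had a ratio of 1.16, the ribosomal protein gene RpS9 of 1.05, and the nuclear receptor ftz-f1 of 1.01. The call of ftz-f1 was lost without Dia 2 and without wild type 1 or 2. Sec63 and RpS9 each overlap an antisense RNA gene, while Hsp23 overlaps no other RefSeq gene. Their log2 ratios of Slam over GFP-slam were 1.91 for Sec63 (edgeR adjusted p = 0.0026), 1.09 for Hsp23 (0.0938) and 0.29 for RpS9 (0.418).

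Of the 81 higher genes, 80 were matched to RefSeq, 86.2% of these overlap another gene, and 57.5% overlap an antisense RNA gene. Over all genes tested these shares were 51.7% and 4.69%. Of the 56 lower genes, 60.7% overlap another gene and 3.57% an antisense RNA gene. Reads from a gene and from its antisense partner cannot be told apart without strand. When only the 3271 genes that overlap no other gene were kept, an alternative chosen after seeing the data, 11 higher and 37 lower genes passed. The 7 higher genes among these that were not set apart were dia, Adk2, GstD1, Hsp23, CG17715, CG32364 (tut in the RefSeq table) and the pseudogene CR40461. CG17715 was at 202, 175, 184 and 198 CPM with Dia and 44.9, 64.2 and 48.1 CPM in wild type (log2 ratio 1.86, edgeR adjusted p = 7.46e-05).

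RNA of the mitochondrial genome was low with Dia. This genome encodes subunits of the respiratory chain and the mitochondrial ribosomal RNAs. Of its 37 joined genes, 14 reached the minimum count, of which 13 passed as lower and all 14 had all Dia libraries below wild type. Since 10 of the 14 reached the minimum only in the mean over the wild-type libraries, these counts describe the tested genes and are not set against other genes. The summed level of all 37 joined genes was 31.1 to 164 CPM with Dia and 5044 to 8213 CPM in wild type. It took 0.00293%, 0.0175%, 0.0106% and 0.00854% of the counts in Dia 1 to Dia 4, against 0.458% to 0.793% in wild type.

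mt:CoI, a subunit of cytochrome c oxidase, was at 15.2, 108, 52.7 and 53.9 CPM with Dia and 2037, 2326 and 1957 CPM in wild type (log2 ratio -5.20, SE 0.59, edgeR adjusted p = 0.00109). mt:CoII was at 18.2 ± 9.74 and 366 ± 35.1 CPM, mt:CoIII at 9.95 ± 7.43 and 744 ± 46.3, and mt:ND4 at 2.16 ± 1.05 and 145 ± 45.5. The large ribosomal RNA mt:lrRNA, which was set apart, was at 0.144, 2.16, 0 and 0.145 CPM against 4008, 987 and 4249. The median log2 ratio of the 8 genes not set apart was -5.54.

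The same split ran through the other libraries, with 25.4 to 318 CPM in sum for Slam and 3973 to 7780 for GFP-slam. No Dia or Slam library overlapped a GFP-binder library in the sum. Genes for mitochondrial proteins in the nuclear genome were counted too. Of 72 genes of mitochondrial ribosomal proteins none passed by edgeR (7 at an unadjusted p under 0.05, 3 by DESeq2), and the median log2 ratio was -0.16. Of 24 genes of the respiratory chain none passed either (2 unadjusted, 1 by DESeq2), with a median of -0.18. The shares over all genes tested were 15.8% unadjusted and 5.79% by DESeq2. The sums over all joined genes of both lists were lower in all Dia libraries than in any wild-type library, at 2560 to 2986 against 3176 to 3663 CPM and at 5646 to 7165 against 7167 to 9518 CPM.

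**Figure D4:**
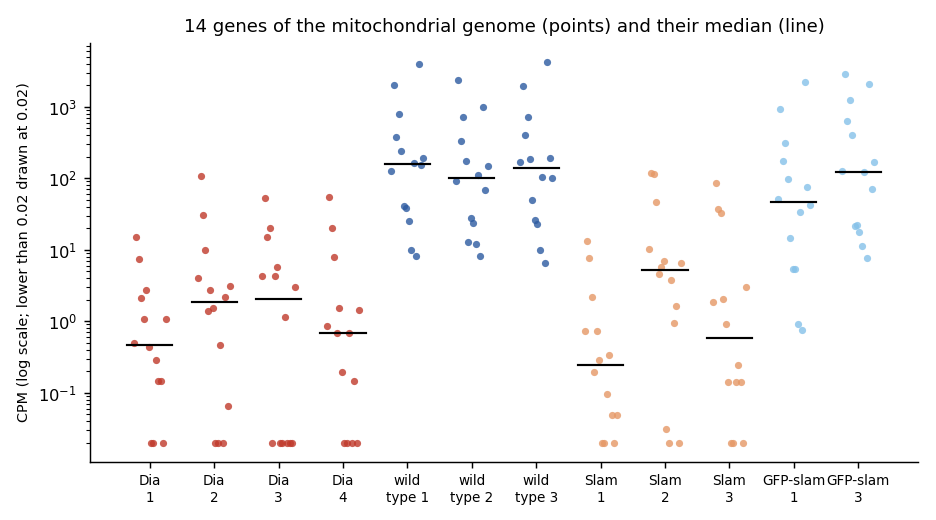
CPM of 14 genes of the mitochondrial genome (points, logarithmic axis) and their median (line) in each of the 12 libraries. The medians of all antibody libraries, Dia and Slam, lie below those of all GFP-binder libraries.

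Small nuclear and nucleolar RNAs, which guide splicing and the modification of ribosomal RNA, also had a low median. Of 360 in the joined tables, 80 reached the minimum count. Of these 80, 11 passed as lower, 1 as higher, and 37 had all Dia libraries below wild type. Over all genes tested, 1.22% were lower, 1.98% higher and 6.81% had all Dia libraries below. The median log2 ratio of the 77 not set apart was -3.98. Of the 80, 44 reached the minimum count in the mean over the wild-type libraries and not in that over the Dia libraries, so these counts and this median are descriptions. Wild type 1 had the highest sum over all 360, at 27740 CPM, against 5814 and 11880 in the other wild-type libraries and 4298 to 14000 with Dia, so the ranges overlapped. Without wild type 1 only 46 of the small RNAs reached the minimum count, and 9 passed, while 20 passed without wild type 2 and 17 without wild type 3. Leaving out any single Dia library left 5 or 6 calls in place of 12, and DESeq2 gave 29. snoRNA:U3:9B was at 29.4, 30.6, 42.4 and 42.9 CPM with Dia and 267, 159 and 88.3 CPM in wild type (log2 ratio -2.24, edgeR adjusted p = 0.000861).

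Several protein-coding genes were also more abundant in the wild-type background. CG4049, among the 10 most abundant joined genes in wild type, was at 1137, 3768 and 5209 CPM there and at 133, 152, 118 and 158 CPM with Dia (log2 ratio -4.59, SE 0.45, edgeR adjusted p = 0.000106). CG11984 (Kcmf1 in the RefSeq table) was at 2346, 3205 and 6183 CPM against 531, 371, 374 and 397 CPM (-3.23, adjusted p = 1.37e-05). CG14814 (Gcna in the RefSeq table) was at 9476, 280 and 3250 CPM in wild type, a range that overlapped the 230 to 407 CPM with Dia, and did not pass (adjusted p = 0.176).

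The chromatin gene tou had a log2 ratio of -3.43, and was at 2688, 2398 and 4927 CPM in wild type. ACC, the first enzyme of fatty acid synthesis, had a ratio of -3.80, the Polycomb group gene Sfmbt of -2.19, and Mlf of -2.05. All 4 were also lower with Slam than with GFP-slam, with log2 ratios of -1.95 to -3.48. The wild-type libraries differed among themselves for these genes, as for ACC with 365, 1003 and 1445 CPM.

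Among early patterning genes, cad and hb were lower with Dia. cad, a homeobox gene of the posterior embryo with both maternal and zygotic mRNA, was at 344, 315, 300 and 285 CPM with Dia and 627, 3915 and 1696 CPM in wild type (log2 ratio -2.74, SE 0.51, edgeR adjusted p = 0.0211). hb, the gap gene of the anterior, was at 388, 256, 351 and 261 CPM against 393, 1974 and 1449 CPM (-2.02, adjusted p = 0.048). For hb the highest Dia library reached 388 CPM and the lowest wild-type library 393 CPM. Both calls were lost when any single Dia library was left out. Of 59 zygotic patterning genes these were the 2 that passed (background 1.22%), and the median was -0.10. By DESeq2 4 of the 59 passed (5.79% of all genes tested), and without wild type 1 by edgeR 5 (246 of 6861 over all genes). The same 2 were the only ones of 39 maternal transcripts, where the median was 0.08.

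RhoGEF2, the exchange factor that activates Rho1 at the furrow, was at 249, 385, 249 and 256 CPM with Dia and 166, 124 and 164 CPM in wild type (log2 ratio 0.91, edgeR adjusted p = 0.0541). In the list of septins, furrow canal and cellularization genes, 34 were tested, Sry-alpha, which was set apart, passed as higher and Elba2 as lower, and the median log2 ratio was -0.15. By DESeq2 4 of the 34 passed, and without wild type 1 by edgeR 6. The shares over all genes tested were 3.2% by edgeR and 5.79% by DESeq2, and without wild type 1 246 of 6861 genes passed. Elba2, a subunit of an insulator complex, was at 365 ± 82.1 CPM with Dia and 1121 ± 490 in wild type (-1.62, adjusted p = 0.00673).

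None of 40 actin filament genes, 35 microtubule and motor genes, 28 germ plasm genes and 17 membrane-associated scaffold genes passed by edgeR. Their medians were 0.07, 0.11, 0.18 and 0.28, against -0.02 over all genes tested. At an unadjusted p under 0.05 there were 7, 7, 7 and 4 genes, and by DESeq2 1, 1, 1 and 2 genes passed. Over all genes tested, 15.8% had such an unadjusted p and 5.79% passed by DESeq2. The scaffold list holds Magi, with which its sum reached 3139 to 24300 CPM with Dia against 2370 to 3235 in wild type. Of 35 genes for RNA-binding proteins of mRNA localization and repression, none passed by edgeR (12 unadjusted, 4 by DESeq2). All Dia libraries were above wild type for 12 of the 35 (background 7.6%) and below for 1 (6.81%), and the median was 0.30. Hrb27C, a splicing factor that also binds localized mRNAs, was at 1860, 1854, 1903 and 1937 CPM with Dia and 1218, 948 and 1245 CPM in wild type (log2 ratio 0.73, edgeR adjusted p = 0.07).

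Housekeeping groups had small ratios apart from single genes. For comparison, 1.98% of all genes tested passed by edgeR as higher and 1.22% as lower. Before adjustment 15.8% had a p under 0.05, and 5.79% passed by DESeq2. Of 86 ribosomal protein genes, RpS9 and the set-apart RpL7-like were higher and RpL39 was lower (-0.92, edgeR adjusted p = 0.0306), with a median of -0.16. Of 36 translation factors eIF-4B passed as higher, and of 32 proteasome genes Rpt6, an ATPase of its regulatory particle, as lower (-0.91, adjusted p = 0.0335). Hsp23 was the gene that passed of 21 chaperones, Sec63 of 36 genes of the secretory pathway and GstD1 of 19 detoxification genes, all as higher. Of 7 histone genes the set-apart His2B:CG33868 was lower. The calls of RpS9, RpL39 and Rpt6 were lost in at least 3 of the alternatives each. Of 36 splicing factors none passed by edgeR (4 unadjusted, 1 by DESeq2), nor did any of 17 subunits of the vacuolar proton pump or 7 snoRNA host genes (0 unadjusted and 0 by DESeq2 in both).

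**Figure D5:**
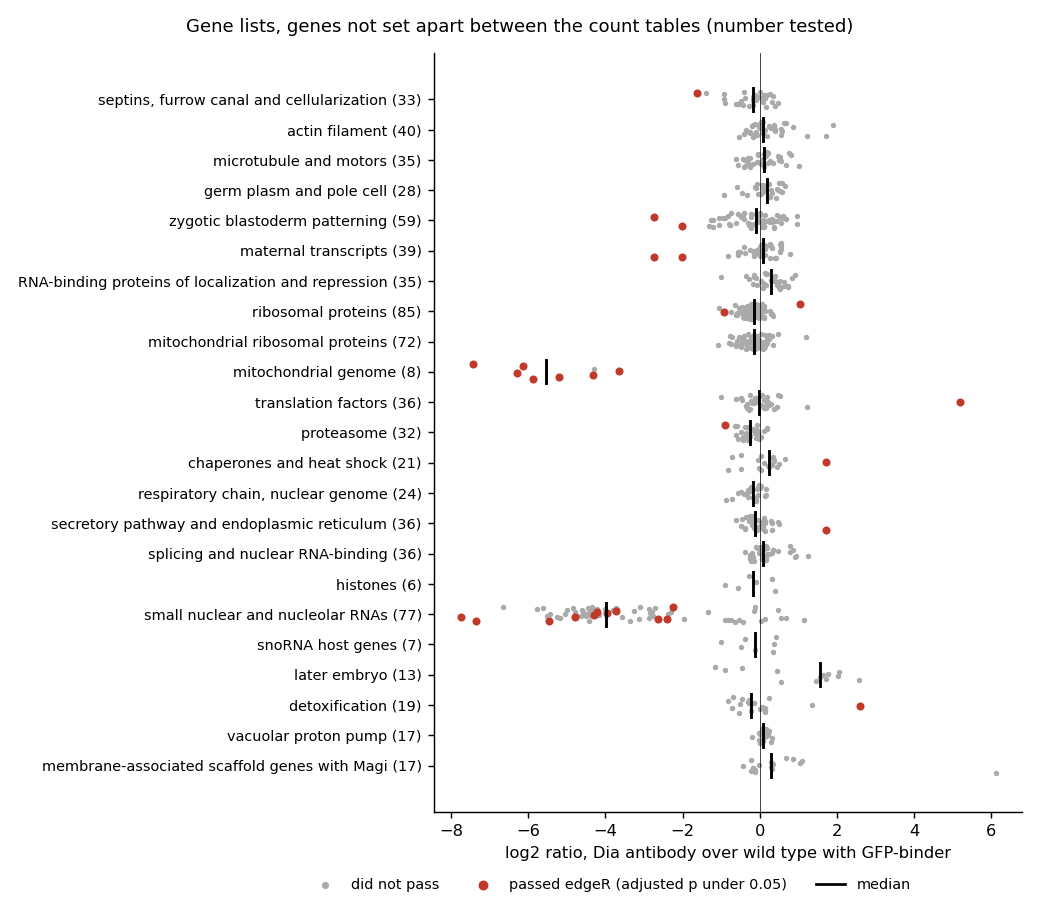
The log2 ratio of Dia over wild type for the members of 23 gene lists with at least 6 genes tested, without genes set apart between the tables, with members that passed in red and the median as a line. The mitochondrial genome and the small RNAs lie at negative values, and single genes such as GstD1 and eIF-4B stand apart from lists near 0.

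The ribosomal pseudogene 28SrRNA-Psi:CR40596 was at 1381, 486, 7875 and 318 CPM with Dia and 17.5, 22.4 and 30.1 CPM in wild type (log2 ratio 6.75, SE 1.62, edgeR adjusted p = 0.126). All 4 Dia libraries lay above wild type, and Dia 3, the library with the fewest counts, stood highest. Another such pseudogene, 28SrRNA-Psi:CR40741, was set apart toward the GFP-binder table, with 1 read over the Dia libraries and 8.47, 2.36 and 16 CPM in wild type. It shares its sequence with the ribosomal RNA repeats, so its level also depends on how reads with many matches were counted. 28SrRNA-Psi:CR40596 was named after its values were seen, and 28SrRNA-Psi:CR40741 by the rule of the 4 lowest adjusted p of each list.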

How the data were processed

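RNA immunoprecipitates of pooled embryos were sequenced (TruSeq RNA kit, HiSeq2000). STAR 2.5.0, DESeq2, FastQC 0.11.4 and bcl2fastq 2.17.1.14 are listed by the submitters. Build, annotation, counting tool and strand setting were not given in the sources used here. Raw counts per gene were deposited by the authors in 2 tables, with 15682 gene identifiers (antibody) and 17559 (GFP-binder), of which 394 and 2271 are in 1 table only. 1 identifier was corrected for the join, and 15083 of the joined genes were matched to RefSeq (Release 6 plus ISO1 MT), used for names and overlaps. Candidate tables of the authors hold fold changes and p-values, which were not used, only their gene coordinates. 0 columns of a library were left unused.

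From the deposited counts, edgeR 4.0.16 was used for TMM scaling and the robust quasi-likelihood test, fitted separately for Dia against wild type and for Slam against GFP-slam, and over all 12 libraries for the difference of both. DESeq2 1.42.0 served as an alternative (R 4.3.3). On simulated counts of 6868 genes for Dia against wild type, 37% of 2-fold and 91% of 4-fold changes were recovered, with 5.19% false among the calls. Named genes were those the study followed, the 12 highest and 12 lowest ratios among passing genes with groups that did not overlap and at least 20 counts in each library of the higher group, the 4 lowest adjusted p of each list, the 10 most abundant of each group, and the 6 highest and lowest differences. Members and lists were chosen with earlier results of these data known, and 1 gene list is not reported here. No input RNA or non-binding antibody library was analysed here. Replicate counts differed by more than sampling noise (chi-square per degree of freedom 61.0 to 382), so no library was counted as a duplicate. Same-numbered Dia and wild-type libraries did not deviate together (correlations -0.179, -0.245 and 0.0374), so numbers were not used to pair them.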

Additional observations from a re-analysis of the deposited data

Results flagged for a closer look

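In groups of 4 libraries, a library was marked where its gap to the nearest other library passed Dixon's 95% limit. Chance gives this in about 1 of 20 groups of normally distributed values. That rate does not hold for genes with few reads or genes chosen by their values, both of which are included, so the marks are descriptions. A library was marked for 13 of 74 genes and 4 of 26 gene lists in the Dia libraries. Dia 1 was high for CG7185 (21900 CPM), CycB (7074 CPM), CG11984 (531 CPM) and the actin filament list (14340 CPM summed), and held the only reads of the Dia libraries for mt:ND6 and snoRNA:Pi4KIIalpha-a, 2 reads each (0.144 CPM). Dia 2 was high for RhoGEF2 (385 CPM) and mt:lrRNA (2.16 CPM). Dia 3, with the fewest counts, was high for 28SrRNA-Psi:CR40596 (7875 CPM), ribosomal and transfer RNAs in sum (11500 CPM), CR41535 (229 CPM), RpS9 (1521 CPM) and ppk19 (16.3 CPM). Dia 4 was apart for Adk2 (178 CPM), cin (0.241 CPM), mitochondrial ribosomal proteins (2560 CPM summed) and detoxification genes (1215 CPM summed).

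The log2 ratio of Dia over wild type differed from that of Slam over GFP-slam, by edgeR in a fit of all 12 libraries, for 9 of the 74 genes described. Over all genes tested, 228 of 6868 passed. Some of the 74 genes were named by this same difference or after their values were seen, so the count of 9 is a description. The difference was 3.77 for dia, 5.40 for GstD1 and 3.42 for CR34335. It was -6.33 for Hip1 (adjusted p = 3.81e-07), which had a log2 ratio of 5.78 for Slam over GFP-slam and -0.34 for Dia over wild type. It was -4.17 for CG4294, -3.58 for ZC3H3, -1.70 for CG7065, -7.82 for snoRNA:Pi4KIIalpha-a and -6.69 for scaRNA:PsiU2-55.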

How the results depend on the processing

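Of 220 genes that passed for Dia against wild type (136 higher, 84 lower), other settings gave 398 with DESeq2 (227 and 171) and 344 with no minimum of counts (153 lower). The replicate block gave 406 (202 lower), although the numbers do not pair the libraries, and for Slam against GFP-slam 620 higher and 947 lower. In 2 alternatives chosen after seeing the data, 114 passed without the genes set apart between the tables (72 and 42), and 48 without genes that overlap another gene (11 and 37). More than 4-fold apart were 160 genes, 100 at a mean count of 200, 71 without set-apart genes and 37 without overlapping genes. With each library left out in turn, 182 to 246 genes passed, 108 to 147 higher and 65 to 124 lower, and 144 to 161 more than 4-fold apart. For Slam against GFP-slam, 1996 genes passed, 1321 scaled by library totals only, 1319 in 1 fit of all 12 libraries, and 697 (without GFP-slam 1) to 2205 with a library left out. The difference of both contrasts gave 228 genes, 460 with DESeq2, and 118 (without GFP-slam 1) to 249, with 124 without GFP-slam 3 and 134 without Slam 2. The log2 ratio of dia, 3.28 with no minimum of counts (adjusted p = 0.0855), ranged from 2.94 to 3.57 with a library left out. The cause of these changes was not tested.

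Of the 51 other named genes that passed, 37 passed in every alternative that tested them, and 61 of 916 values no longer passed while none turned direction. Set-apart genes were not tested in the alternative without such genes, nor overlapping genes in the one without overlaps. The calls of cad, hb, CR34335, CR40461, RpL39, Rpt6 and scaRNA:PsiU2-55 were each lost in at least 5 alternatives. Some genes that did not pass turned direction. slam ranged from -0.28 (without Dia 1) to 0.42, and CycB from -0.18 (without Dia 1) to 0.12. Tes ranged from -0.14 (without Dia 1) to 0.13, with -0.04 without Dia 2 and -0.05 without wild type 2 or 3. Rho1 ranged from -0.25 to 0.11 (without wild type 3), with 0.02 without Dia 4 and 0.04 under the replicate block. snRNA:7SK ranged from -0.49 (without Dia 3) to 0.32, with -0.01 without Dia 2 and -0.20 without wild type 2. Of 14 mitochondrial genes 10 to 14 passed as lower where genes were not left out for overlap or table, and of 80 small nuclear and nucleolar RNAs 2 to 38 passed. Dia 3, with 4383704 counts, limits what low genes can show.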
